A study of Mus musculus with 6 samples.

Results

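The enzymes that build sterols and fatty acids, with the regulators that set their transcription, were followed in the lungs of 6 female SCID mice. The members were taken by name, as 32 gene symbols covering the mevalonate and cholesterol pathway, its SREBP regulators, fatty acid synthesis, elongation and desaturation, and the cytosolic supply of acetyl and acetoacetyl units. All 32 had a row among the 24054 gene rows of the deposited table, and all 32 were among the 14159 genes whose mean over the 6 libraries was at least 1. The Tsc1-null EV group was 3 mice given extracellular vesicles (EVs) made by mouse neural progenitors of stage E15.5 without Tsc1, whose protein works with that of Tsc2 to hold the growth kinase mTORC1 in check. The WT EV group was 3 mice given EVs from wild-type progenitors. In both groups the EVs were CD9+CD63+CD81+, carried a fluorescent label and went into the tail vein. Rat ELT3 cells, a uterine leiomyoma line used as a model of lymphangioleiomyomatosis, were injected intravenously 48 h later, 500000 to a mouse, and the lungs were taken after a further 72 h. The labels used here state no age for the mice, and no lung without EVs or without ELT3 cells was analysed, so the values compare the genotypes of the EV donor cells only.

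Cholesterol and fatty acids are both made from acetyl units in the cytosol. SREBP-2, encoded by Srebf2, drives mainly the cholesterol genes, and SREBP-1, encoded by Srebf1, drives mainly the fatty acid genes. Both are held in the endoplasmic reticulum by SCAP and the INSIG proteins while sterols are plentiful, and mTORC1 is one of the signals that promote their activity. In lung, alveolar type 2 cells use these pathways to make the lipids of surfactant.

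The libraries held 5101413 to 9358820 recovered reads in Tsc1-null EV and 6565182 to 8222269 in WT EV lungs. Tsc1-null EV replicate 1 and WT EV replicate 2 stood apart from the other 4, with median correlations with the other libraries of 0.942 and 0.963, against 0.980 to 0.982. Both were rich in Malat1, a nuclear RNA, at 30060 and 15673, where the other 4 held 1609 to 2819, and folds are therefore also given without them. The tissue label was checked on defining markers: Sftpc of alveolar type 2 cells stood at 13094.5 to 29628 in Tsc1-null EV and 17290 to 22064 in WT EV lungs, and 4 hepatocyte genes together at 0.539 to 2.61 in Tsc1-null EV lungs and 0.854 to 1.23 in WT EV lungs. The lungs hold many cell types, and in such samples fewer cells of a type and less RNA per cell cannot be told apart. Reads from the rat cells cannot be told from mouse reads either. Tsc1, absent from the EV donor cells, stood at 17.2 to 18.7 in Tsc1-null EV and 17.8 to 33.2 in WT EV lungs, which does not check the labels. Values are TMM-normalized, close to CPM, with 1 library per mouse. The p-values set the difference between the groups against the spread of these 6 libraries within their groups.

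Most of the lipid synthesis genes stood somewhat higher with Tsc1-null EVs, and no single one passed the test. Of the 32 members 29 had a log2 fold above 0 (Tsc1-null EV over WT EV, on the log2(value + 1) scale), where 47.3% of all genes tested did. Their median log2 fold was 0.28, against -0.02 over all genes tested. In 9 members all 3 Tsc1-null EV lungs lay above all 3 WT EV lungs, where 6.86% of all genes did, and in 1 member, the elongase Elovl6, all 3 lay below, where 6.22% did. The 9 were Mvk, Pmvk, Sqle, Lss, Cyp51, Ebp, Srebf2, Acss2 and Aacs. Limma with Benjamini-Hochberg adjustment over all 14159 genes called 0 members and 0 genes (0%). At an unadjusted p under 0.05 it held 6 members on the higher and 1 on the lower side, where 3.6% and 2.97% of all genes lay. The quasi-likelihood test of edgeR and DESeq2, both run on the recovered reads, also called 0 members, with 7 members each at an unadjusted p under 0.05. Over all genes limma held 930 at that level, edgeR called 0 and DESeq2 called 14. DESeq2 gave no adjusted p for Mvd, Lss, Tm7sf2, Stard4 and Elovl6, so it could not call these members.

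The 4 groups of members had medians between 0.14 and 0.42. All 15 cholesterol enzymes lay above 0, and their median log2 fold was 0.37. All 4 supply genes did too, with a median of 0.42. The 5 SREBP regulators had a median of 0.14 and the 8 fatty acid enzymes one of 0.14, with 4 and 6 members above 0. Folds ran from -0.68 for Elovl6 to 0.77 for Idi1. These medians are descriptions, and the differences between them were not tested.

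**Figure D1:**
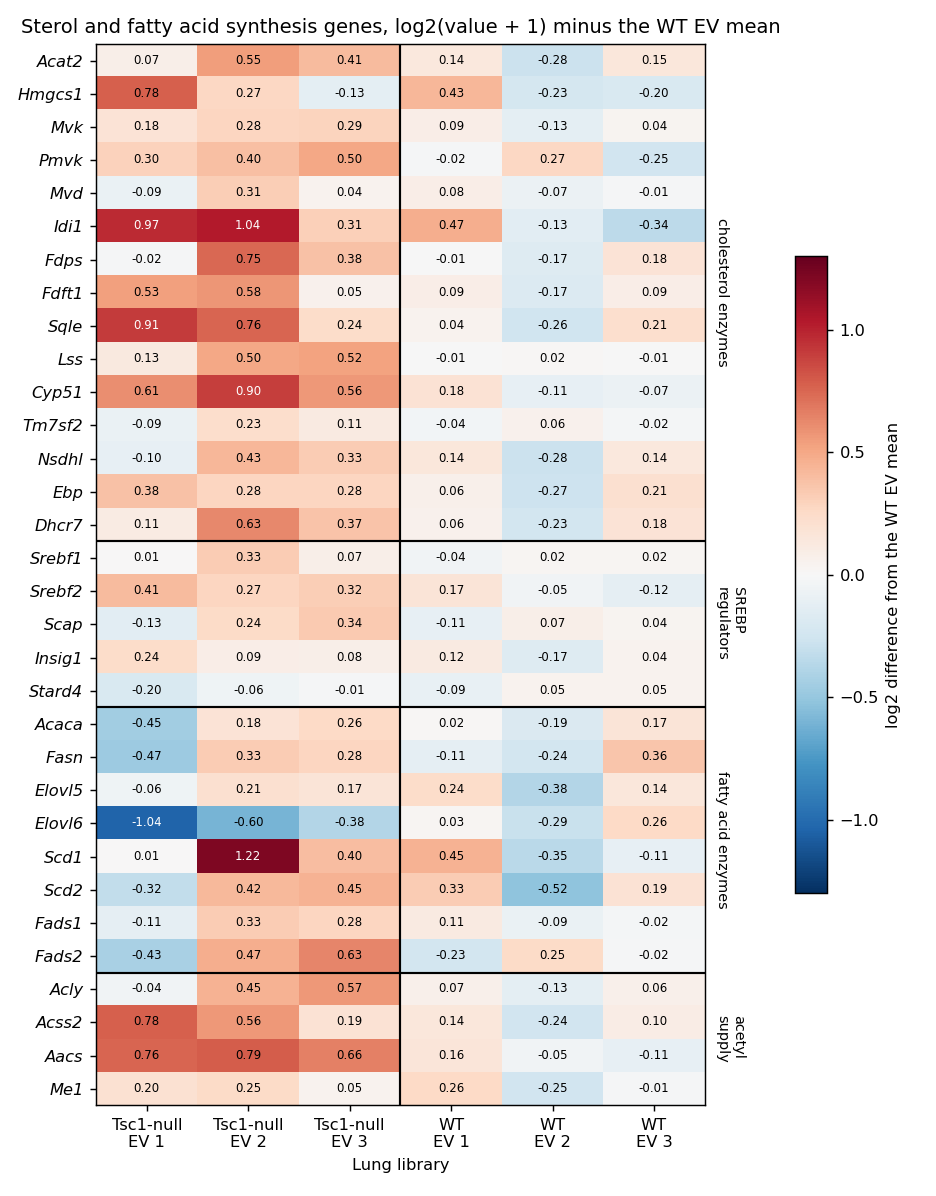
Each cell gives log2(value + 1) of a member (rows, in pathway order) in a lung (columns, Tsc1-null EV left of WT EV) minus the mean of the 3 WT EV lungs. Cholesterol and supply genes are mostly red in the Tsc1-null EV columns, fatty acid genes are mostly blue in Tsc1-null EV replicate 1 and red in replicates 2 and 3, and Elovl6 is blue in all 3.

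Without the 2 libraries that stood apart, the median log2 fold of the 32 members was 0.25, with 27 above 0. There the log2 fold was 0.37 for Sqle, 0.25 for Acss2 and 0.14 for Ebp, against 0.64, 0.51 and 0.31 in all 6 lungs. It was 0.58 for Pmvk and 0.52 for Lss, against 0.40 and 0.38. For Mvk, Cyp51, Srebf2 and Aacs it was 0.22, 0.67, 0.28 and 0.70, against 0.25, 0.69, 0.33 and 0.73. In that comparison of 2 lungs with 2, 21 members lay higher in both Tsc1-null EV lungs than in both WT EV lungs, where 20.9% of all genes did. Leaving out only Tsc1-null EV replicate 1 also gave 21, where 14.9% of all genes lay higher. When limma weighted each library by its estimated precision, 10 members were called, 9 of them higher and 1 lower, where 4.12% and 3.3% of all genes were called. The 9 were Idi1, Scd1, Cyp51, Aacs, Pmvk, Fdps, Sqle, Lss and Acly, with log2 folds of 0.40 to 1.10 and adjusted p of 0.0100 to 0.0427 by limma, and the lower one was Elovl6, at -0.77 (limma adjusted p = 0.0223). The weights were estimated from the same values and ran from 0.213 for Tsc1-null EV replicate 1 to 4.19 for WT EV replicate 3. Tsc1-null EV replicate 2 had 3.95 and the other 3 libraries 0.393 to 0.933, so those calls rest mainly on 2 lungs.

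**Figure D2:**
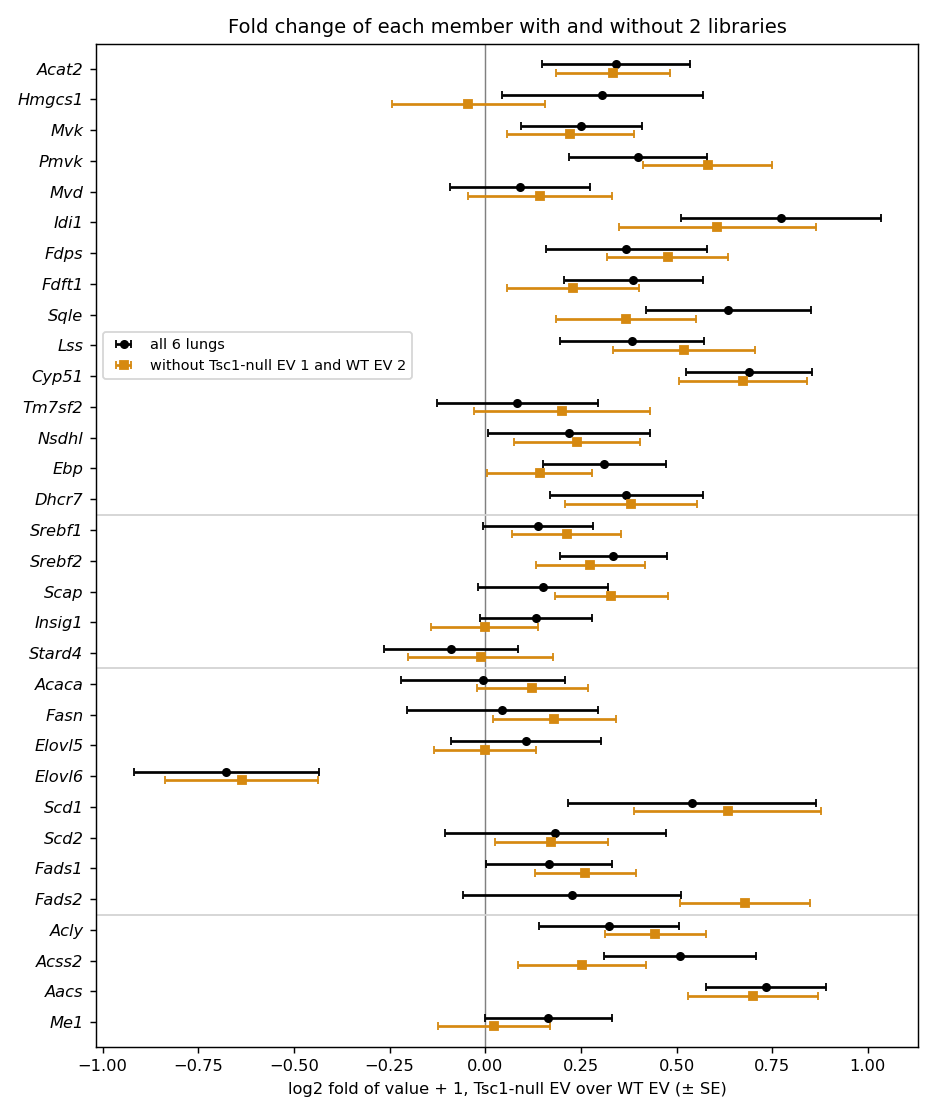
Log2 fold of value + 1 of each member, Tsc1-null EV over WT EV, with its SE, from all 6 lungs (black circles) and without Tsc1-null EV replicate 1 and WT EV replicate 2 (orange squares). Aacs, Cyp51 and Idi1 lie near the right in both fits, Elovl6 lies left of 0 in both, and Hmgcs1 moves to about 0 in the smaller fit.

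The mevalonate steps come first in the cholesterol pathway. Hmgcs1, HMG-CoA synthase, had values of 154, 108 and 81.7 in Tsc1-null EV lungs, against 121, 76.1 and 77.6 in WT EV lungs (log2 fold 0.31, SE 0.26). Its groups overlapped and Tsc1-null EV replicate 1 was the highest lung. Without the 2 libraries that stood apart its log2 fold was -0.04. Acat2, which joins acetyl units to acetoacetyl-CoA at the entry of the pathway, stood at 28.9, 40.5 and 36.7 in Tsc1-null EV lungs, against 30.2, 22.3 and 30.5 in WT EV lungs (log2 fold 0.34, SE 0.19). Mevalonate is then phosphorylated by Mvk and again by Pmvk. Mvk, mevalonate kinase, stood at 18.2, 19.6 and 19.8 in Tsc1-null EV lungs, against 17.1, 14.6 and 16.4 in WT EV lungs (log2 fold 0.25, SE 0.16). Pmvk, phosphomevalonate kinase, stood at 23.1, 24.7 and 26.6 in Tsc1-null EV lungs, against 18.3, 22.5 and 15.4 in WT EV lungs (log2 fold 0.40, SE 0.18). Neither kinase overlapped between the groups, though for Pmvk Tsc1-null EV replicate 1 lay barely above WT EV replicate 2. Mvd, the decarboxylase that follows, was close in both groups, at 10.6, 14.3 and 11.7 in Tsc1-null EV lungs, against 12.1, 10.7 and 11.2 in WT EV lungs (log2 fold 0.09, SE 0.18).

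The isoprenoid steps had one of the larger shifts of the list. Idi1, which interconverts the isoprenoid building blocks, stood at 113, 118 and 70.9 in Tsc1-null EV lungs, against 79.3, 51.9 and 44.9 in WT EV lungs (log2 fold 0.77, SE 0.26, limma adjusted p = 0.721). Its groups overlapped, since Tsc1-null EV replicate 3 lay below WT EV replicate 1, while the other Tsc1-null EV lungs lay above every WT EV lung. Fdps, farnesyl diphosphate synthase, stood at 51.1, 87.6 and 67.7 in Tsc1-null EV lungs, against 51.6, 45.9 and 58.7 in WT EV lungs (log2 fold 0.37, SE 0.21), and there too 1 lung, Tsc1-null EV replicate 1, lay within the WT EV range.

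Squalene formation and its epoxidation commit the pathway to sterols. Fdft1, squalene synthase, stood at 69.8, 72.2 and 49.9 in Tsc1-null EV lungs, against 51.1, 42.5 and 51.1 in WT EV lungs (log2 fold 0.39, SE 0.18), with Tsc1-null EV replicate 3 below 2 of the WT EV lungs. Sqle, squalene epoxidase, stood at 52.5, 47.0 and 32.5 in Tsc1-null EV lungs, against 28.3, 22.8 and 32.0 in WT EV lungs (log2 fold 0.64, SE 0.22, limma adjusted p = 0.721). The gap between its groups was narrow, since Tsc1-null EV replicate 3 and WT EV replicate 3 nearly met. Lss, lanosterol synthase, was tightly grouped in WT EV lungs, with values of 9.62, 12.7 and 12.9 in Tsc1-null EV lungs, against 8.66, 8.82 and 8.64 in WT EV lungs (log2 fold 0.38, SE 0.19).

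Cyp51, the lanosterol demethylase, was the cholesterol enzyme with the smallest unadjusted p. It stood at 43.7, 53.6 and 42.3 in Tsc1-null EV lungs, against 32.3, 26.2 and 26.9 in WT EV lungs, a mean of 46.5 ± 6.15 in Tsc1-null EV lungs and 28.5 ± 3.36 in WT EV lungs (SD, n = 3 each; log2 fold 0.69, SE 0.16, limma adjusted p = 0.721). Every Tsc1-null EV lung exceeded every WT EV lung by a clear margin, and the log2 fold ran from 0.58 to 0.78 over fits with 1 library left out. The later sterol steps had smaller folds. Ebp, the sterol isomerase, stood at 73.0, 68.3 and 68.0 in Tsc1-null EV lungs, against 58.5, 46.2 and 64.9 in WT EV lungs (log2 fold 0.31, SE 0.16), with no overlap but a narrow gap. Dhcr7, which makes cholesterol from 7-dehydrocholesterol, stood at 16.8, 24.6 and 20.4 in Tsc1-null EV lungs, against 16.2, 13.1 and 17.8 in WT EV lungs (log2 fold 0.37, SE 0.20), and Tsc1-null EV replicate 1 lay inside the WT EV range. Nsdhl, of the demethylation of sterols at carbon 4, had a log2 fold of 0.22, and Tm7sf2, a sterol reductase and the scarcest member, one of 0.08 at 3.61 to 4.74 in Tsc1-null EV and 3.78 to 4.12 in WT EV lungs, or 18 to 44 recovered reads.

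The promoter windows of 4 members are shown. Cyp51 and Aacs have the smallest unadjusted p on the higher side, and Elovl6 is the member that lay lower in all 3 Tsc1-null EV lungs. Hmgcs1, a classical SREBP target whose groups overlapped, is shown for its motifs. Each window runs from 250 bases before to 50 after the start of the gene, 5′ to 3′, from RefSeq (GRCm38.p6). Capitals mark CCAAT, the NF-Y site that often flanks SREBP sites, on either strand (CCAAT or ATTGG), and TCACNCCAC, a core of the sterol response element, also searched on both strands.
Cyp51, chr5:4104648-4104947 (minus strand): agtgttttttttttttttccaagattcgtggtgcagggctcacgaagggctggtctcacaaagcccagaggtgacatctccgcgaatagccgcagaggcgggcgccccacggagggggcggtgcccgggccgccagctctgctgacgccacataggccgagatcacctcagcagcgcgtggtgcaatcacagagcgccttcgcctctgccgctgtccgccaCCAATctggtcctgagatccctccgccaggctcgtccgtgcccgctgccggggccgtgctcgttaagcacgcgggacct
Aacs, chr5:125475623-125475922 (plus strand): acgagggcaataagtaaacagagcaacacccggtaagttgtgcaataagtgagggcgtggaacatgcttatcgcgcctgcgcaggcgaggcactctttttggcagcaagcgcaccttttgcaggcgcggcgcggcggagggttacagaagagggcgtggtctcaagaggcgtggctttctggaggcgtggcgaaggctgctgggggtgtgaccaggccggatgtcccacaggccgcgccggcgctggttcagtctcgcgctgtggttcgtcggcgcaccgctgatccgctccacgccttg
Elovl6, chr3:129532136-129532435 (plus strand): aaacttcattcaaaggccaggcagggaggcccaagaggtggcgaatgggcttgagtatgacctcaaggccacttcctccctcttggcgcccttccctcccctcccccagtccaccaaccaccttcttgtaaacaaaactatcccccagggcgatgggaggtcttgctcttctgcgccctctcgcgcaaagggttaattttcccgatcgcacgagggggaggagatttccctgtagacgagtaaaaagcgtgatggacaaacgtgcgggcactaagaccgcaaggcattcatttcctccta
Hmgcs1, chr13:119690101-119690400 (plus strand): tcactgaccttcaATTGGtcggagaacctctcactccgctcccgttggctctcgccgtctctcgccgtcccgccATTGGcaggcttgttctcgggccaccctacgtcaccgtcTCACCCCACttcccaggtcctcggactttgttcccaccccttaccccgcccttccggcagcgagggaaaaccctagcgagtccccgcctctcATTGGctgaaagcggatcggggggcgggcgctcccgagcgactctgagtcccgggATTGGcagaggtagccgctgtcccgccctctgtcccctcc

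Hmgcs1 held 1 match of the sterol response core and 4 CCAAT boxes, Cyp51 held 1 CCAAT box, and these letters were not found in the Aacs and Elovl6 windows. Windows were found for 25 of the 32 members, 32 windows in all. CCAAT was in 20 of them (62.5%), against 37.4% of all 32851 windows, and the sterol core in 1, against 1.24%. GGGCGG, the GC box bound by Sp1, was in 22 (68.8%), against 35.7%, on either strand. A base could count for more than 1 motif. The motifs were chosen with the values known, and a match is a string of letters, not a bound site. Only these strings were searched, so a window without a match was not shown to lack a site.

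Among the genes that supply acetyl and acetoacetyl units, Aacs had the smallest unadjusted p of all 32 members. Aacs, which activates acetoacetate in the cytosol for lipid synthesis, stood at 28.5, 29.1 and 26.5 in Tsc1-null EV lungs, against 18.4, 15.9 and 15.2 in WT EV lungs. Its means were 28.0 ± 1.35 in Tsc1-null EV lungs and 16.5 ± 1.71 in WT EV lungs (SD, n = 3 each; log2 fold 0.73, SE 0.16, limma adjusted p = 0.721). The lowest Tsc1-null EV lung lay well above the highest WT EV lung, and the log2 fold was 0.70 without the 2 libraries that stood apart. Acss2, which turns acetate into acetyl-CoA, stood at 45.7, 39.4 and 30.0 in Tsc1-null EV lungs, against 29.2, 22.0 and 28.3 in WT EV lungs (log2 fold 0.51, SE 0.20). It was ordered within the Tsc1-null EV group as Sqle was, with replicate 1 highest and replicate 3 barely above the WT EV lungs. Acly, which splits citrate into acetyl-CoA, stood at 83.0, 117 and 127 in Tsc1-null EV lungs, against 89.6, 78.3 and 89.5 in WT EV lungs (log2 fold 0.32, SE 0.18). There replicate 1 lay inside the WT EV range and replicates 2 and 3 above it. Me1, malic enzyme, a source of NADPH, overlapped at 129.7, 134 and 116 in Tsc1-null EV lungs, against 135, 94.8 and 112 in WT EV lungs (log2 fold 0.16, SE 0.17).

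Of the regulators, Srebf2 was the one whose groups did not overlap. Srebf2 stood at 131, 119 and 124 in Tsc1-null EV lungs, against 111, 95.2 and 90.7 in WT EV lungs, or 125 ± 5.85 in Tsc1-null EV lungs and 98.9 ± 10.4 in WT EV lungs (SD, n = 3 each; log2 fold 0.33, SE 0.14, limma adjusted p = 0.721). Srebf1 stood at 78.6, 98.3 and 82.2 in Tsc1-null EV lungs, against 75.7, 79.2 and 79.2 in WT EV lungs (log2 fold 0.14, SE 0.14), with Tsc1-null EV replicate 1 between the WT EV values. The table holds 1 row for Srebf1, so its isoforms were not separated. Scap, the escort protein of the SREBPs, stood at 32.9, 43.0 and 46.1 in Tsc1-null EV lungs, against 33.4, 38.1 and 37.1 in WT EV lungs (log2 fold 0.15, SE 0.17). Insig1, which retains that complex when sterols are high and is itself an SREBP target, stood at 53.9, 48.5 and 48.3 in Tsc1-null EV lungs, against 49.8, 40.6 and 47.1 in WT EV lungs (log2 fold 0.13, SE 0.15), and its log2 fold was -0.0009 without the 2 libraries that stood apart. Stard4, a cytosolic cholesterol carrier, was 1 of the 3 members with a fold below 0, at 9.02, 10.0 and 10.4 in Tsc1-null EV lungs, against 9.76, 10.9 and 10.9 in WT EV lungs (log2 fold -0.09, SE 0.17).

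The fatty acid enzymes had folds on both sides of 0. Acaca, the carboxylase that makes malonyl-CoA, stood at 29.9, 46.7 and 49.5 in Tsc1-null EV lungs, against 41.7, 36.0 and 46.5 in WT EV lungs (log2 fold -0.01, SE 0.21). Fasn, fatty acid synthase, stood at 112, 195 and 189 in Tsc1-null EV lungs, against 144, 131 and 199 in WT EV lungs (log2 fold 0.04, SE 0.25). In both genes Tsc1-null EV replicate 1 was the lowest of all 6 lungs, and replicates 2 and 3 were among the highest. Without the 2 libraries that stood apart the log2 folds were 0.12 for Acaca and 0.18 for Fasn.

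Of the 4 desaturases, Scd1, Scd2 and Fads2 varied more between the lungs of a group than Fads1 did. Scd1, the delta-9 desaturase that makes oleate, stood at 363, 839.5 and 476 in Tsc1-null EV lungs, against 494, 284 and 335 in WT EV lungs (log2 fold 0.54, SE 0.32). The single value of Tsc1-null EV replicate 2 exceeds every other lung, and the coefficient of variation was 44.5% in Tsc1-null EV and 29.6% in WT EV lungs. Scd2, its paralogue and the member with the highest mean value, stood at 463, 772 and 788 in Tsc1-null EV lungs, against 728, 402 and 657 in WT EV lungs (log2 fold 0.18, SE 0.29). The ratio of Scd1 to Scd2 was 0.785, 1.09 and 0.604 in Tsc1-null EV lungs, against 0.679, 0.707 and 0.510 in WT EV lungs, so the groups overlapped in it. Fads1 and Fads2, the delta-5 and delta-6 desaturases of polyunsaturated fatty acids, had log2 folds of 0.17 and 0.23. Fads2 stood at 13.2, 25.6 and 28.6 in Tsc1-null EV lungs, against 15.2, 21.8 and 17.9 in WT EV lungs, and without the 2 libraries that stood apart its log2 fold was 0.68.

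The 2 elongases lay on different sides of 0. Elovl6, which extends palmitate to stearate, stood at 4.81, 6.90 and 8.17 in Tsc1-null EV lungs, against 11.2, 8.82 and 13.3 in WT EV lungs, or 6.63 ± 1.70 in Tsc1-null EV lungs and 11.1 ± 2.26 in WT EV lungs (SD, n = 3 each; log2 fold -0.68, SE 0.24, limma adjusted p = 0.721). Every Tsc1-null EV lung lay below every WT EV lung, the closest being Tsc1-null EV replicate 3 and WT EV replicate 2, on 24 to 108 recovered reads per library. Elovl5, which extends polyunsaturated fatty acids, overlapped, at 272, 327 and 319 in Tsc1-null EV lungs, against 334, 218 and 313 in WT EV lungs (log2 fold 0.11, SE 0.19). Elovl6 is strongly expressed in fat, and the 9 adipocyte markers together stood at 57.3 to 174 in Tsc1-null EV lungs and 123 to 400.4 in WT EV lungs. WT EV replicate 3 was highest and Tsc1-null EV replicate 1 lowest in both Elovl6 and that sum. In the sum the other lungs were ordered differently from Elovl6. Tsc1-null EV replicates 2 and 3, with sums of 174 and 137, lay above WT EV replicate 2, at 123. In Elovl6 both lay below that lung. Of the 9 markers 8 were tested, and all 8 had a log2 fold below 0, with a median of -1.02. In 2 of them, Adrb3 and Ucp1, all 3 Tsc1-null EV lungs lay below all 3 WT EV lungs, where 6.22% of all genes did. Adrb3, with the smallest unadjusted p of the markers, stood at 4.81, 8.73 and 6.85 in Tsc1-null EV lungs, against 14.3, 10.9 and 19.2 in WT EV lungs. In Adrb3, as in Elovl6, Tsc1-null EV replicates 2 and 3 lay below WT EV replicate 2. Ucp1, of brown fat, was at 0 in Tsc1-null EV replicates 1 and 2 and at 9.50 in WT EV replicate 3. It was near 0 in Tsc1-null EV replicate 3 and in WT EV replicates 1 and 2 as well, so its difference rests on 1 library. No marker was at 0 in all 6 lungs. The part of fat tissue in the Elovl6 values was not tested.

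**Figure D3:**
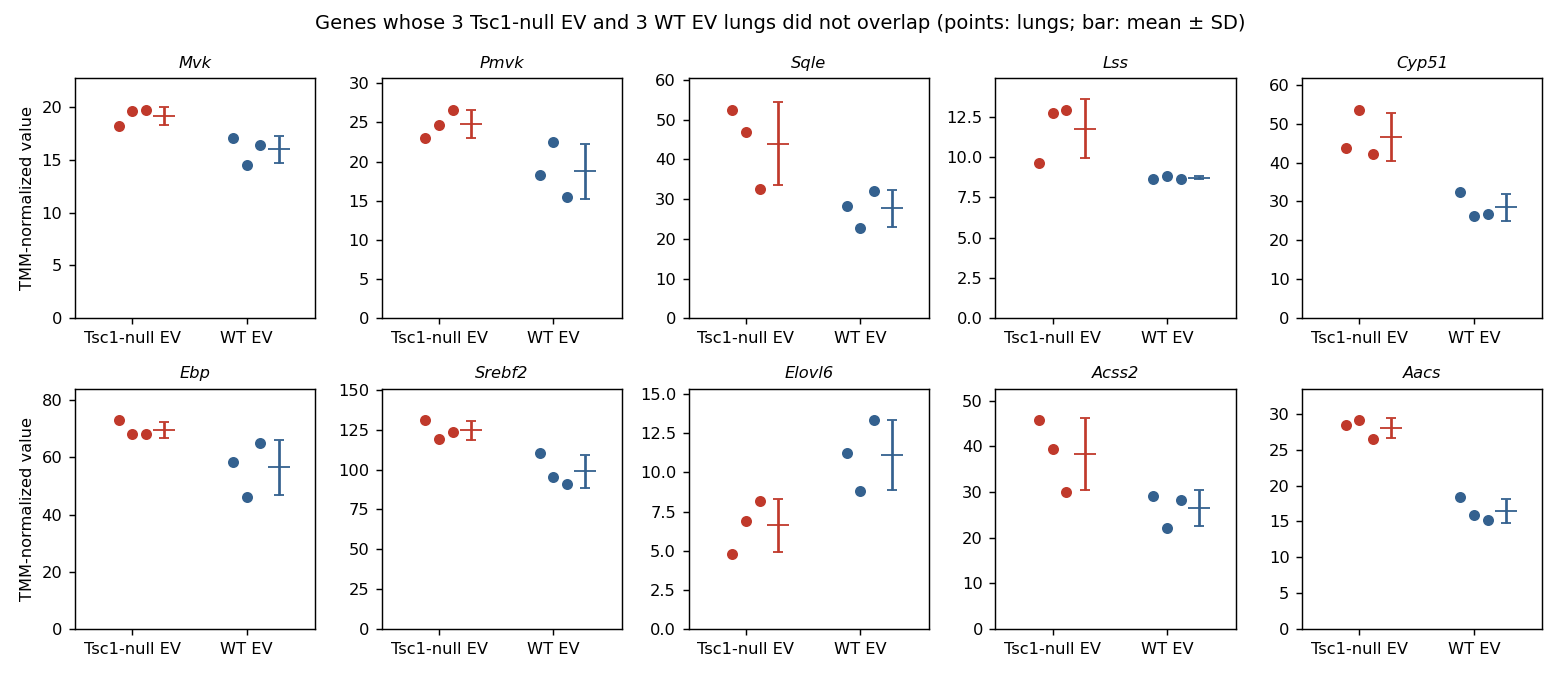
TMM-normalized value of the 10 members whose groups did not overlap, in each lung (points, in replicate order), with the mean and SD of each group (bars, n = 3). The margin between Tsc1-null EV (left) and WT EV (right) is wide for Aacs and Cyp51 and narrower for the others, among them Pmvk, Sqle, Acss2, Ebp and Elovl6.

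Genes of the same pathways outside the list were read from lists chosen on function. Of 8 further sterol synthesis genes 7 were in the table and 6 were tested. All 6 lay above 0, their median log2 fold being 0.29, and 0 of the 6 passed limma. Hsd17b7, of sterol demethylation, stood at 11.2, 9.38 and 9.39 in Tsc1-null EV lungs, against 7.44, 7.64 and 8.14 in WT EV lungs (log2 fold 0.33, SE 0.18). All 3 Tsc1-null EV lungs lay above all 3 WT EV lungs there. Msmo1, another gene of sterol demethylation, had a log2 fold of 0.32, with overlap.

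Sterol uptake and SREBP processing gave a mixed picture, with 3 of 9 tested genes above 0, a median of -0.06 and 0 passing limma. Without the 2 libraries that stood apart 6 of the 9 were above 0, and the median was 0.06. Mylip, a ubiquitin ligase of sterol uptake, stood at 29.3, 30.3 and 29.7 in Tsc1-null EV lungs, against 35.4, 34.7 and 30.5 in WT EV lungs (log2 fold -0.16, SE 0.14), the lowest WT EV lung lying barely above the highest Tsc1-null EV lung. Mbtps2, a protease that releases the SREBPs, had a log2 fold of -0.34 with overlap.

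The lists of lipid use and export had medians near or below 0, and several turned sign without the 2 libraries that stood apart. Of 10 genes of the sterol sensor LXR and of sterol efflux, 2 were above 0, with a median of -0.19, 0 passed limma, and Abca1, the cholesterol exporter, stood at 79.8, 56.3 and 56.3 in Tsc1-null EV lungs, against 105, 68.8 and 82.3 in WT EV lungs (log2 fold -0.40, SE 0.21). That median was 0.05 without those libraries. The 10 genes of fatty acid oxidation had a median of 0.01, the 10 of glycerolipid and surfactant lipid synthesis -0.11, and the 14 tested further genes of fatty acid elongation, desaturation and activation 0.07. Without the same libraries these 3 medians were -0.05 for oxidation, 0.03 for glycerolipid synthesis and 0.08 for the further fatty acid genes. None of the genes of these 3 lists passed limma, and none was separated between the groups. Lpcat1, which remodels surfactant phosphatidylcholine, stood at 36.9, 85.6 and 57.4 in Tsc1-null EV lungs, against 40.9, 43.8 and 29.9 in WT EV lungs (log2 fold 0.58, SE 0.29). Thrsp, a lipogenic factor abundant in fat, stood at 6.62, 19.8 and 15.6 in Tsc1-null EV lungs, against 30.1, 12.6 and 48.7 in WT EV lungs, and WT EV replicate 3 was the highest lung, as it was for the adipocyte markers.

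Per exon length the members spanned a wide range in both groups. On the scale of TMM-normalized value per kb of exon, the desaturase Scd2 averaged 123 in Tsc1-null EV lungs and 109 in WT EV lungs, and Scd1 114 in Tsc1-null EV lungs and 75.9 in WT EV lungs. Elovl5 followed at 86.9 in Tsc1-null EV lungs and 81.8 in WT EV lungs. Among the cholesterol enzymes Ebp averaged 30.2 in Tsc1-null EV lungs and 24.5 in WT EV lungs and Idi1 28.7 in Tsc1-null EV lungs and 16.7 in WT EV lungs, while Tm7sf2 averaged 0.959 in Tsc1-null EV lungs and 0.887 in WT EV lungs and Lss 1.09 in Tsc1-null EV lungs and 0.807 in WT EV lungs. Elovl6 was also among the scarcest, at 1.03 in Tsc1-null EV lungs and 1.73 in WT EV lungs. The ranges of Scd1, Scd2 and Elovl5 over the lungs of a group overlapped, and so did those of Tm7sf2 and Lss in Tsc1-null EV lungs, while in WT EV lungs Tm7sf2 lay above Lss. Lengths are unions of all annotated exons, 10787 bases for Lss, which lowers the value of genes whose long isoforms are rare. Which isoforms were used in these lungs was not measured.

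**Figure D4:**
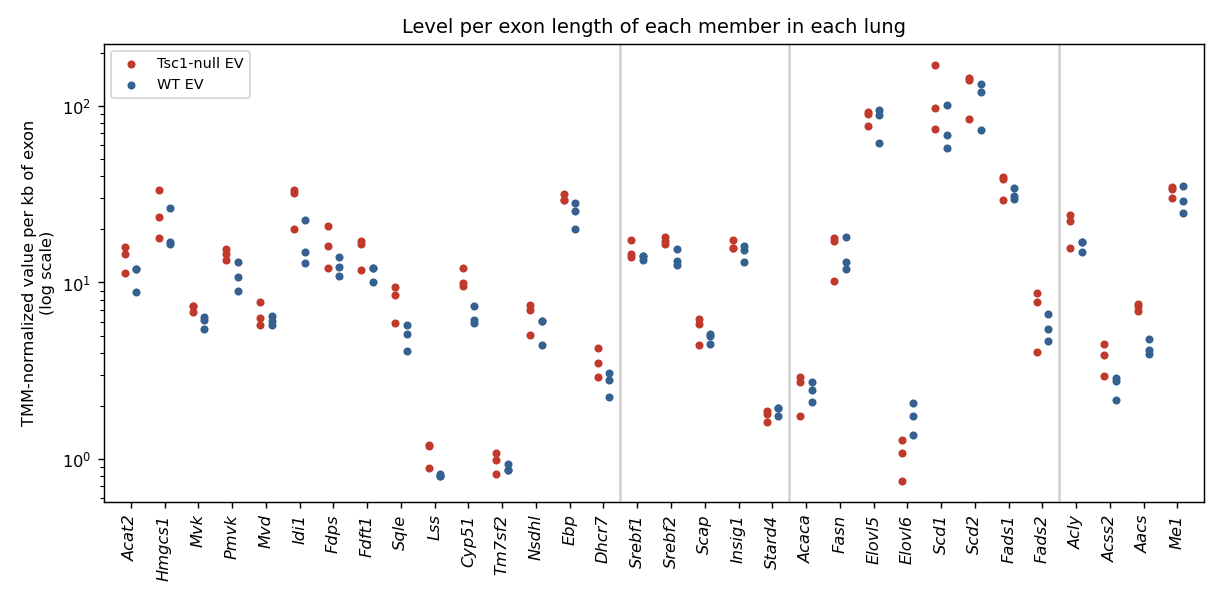
TMM-normalized value per kb of exon of each member in each lung, on a log axis, with Tsc1-null EV (red) left of WT EV (blue) and the groups of members divided by grey lines. Scd1, Scd2 and Elovl5 lie near 100, most cholesterol enzymes lower, and Lss, Tm7sf2 and Elovl6 near 1.

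The lungs differed in how the members stood together. Tsc1-null EV replicate 2 held the highest of the 6 values in 13 of 32 members and the lowest in 0, where it was highest in 14.9% and lowest in 13.6% of all genes tested. WT EV replicate 2 held the lowest value in 17 members, where it did so in 23.3% of all genes. The mean log2 level of the 15 cholesterol enzymes relative to the WT EV mean was 0.31, 0.53 and 0.28 in Tsc1-null EV replicates 1, 2 and 3, against 0.11, -0.13 and 0.02 in WT EV replicates 1, 2 and 3. That of the 8 fatty acid enzymes was -0.36, 0.32 and 0.26 in Tsc1-null EV replicates 1, 2 and 3, against 0.10, -0.23 and 0.12 in WT EV replicates 1, 2 and 3. So the cholesterol enzymes were above the WT EV lungs in all 3 Tsc1-null EV lungs, and the fatty acid enzymes in replicates 2 and 3 only. All 32 members together took 0.261% to 0.373% of the signal in Tsc1-null EV and 0.222% to 0.302% in WT EV lungs.

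Markers of the cells that could carry these transcripts also differed between the lungs. The 9 alveolar type 2 markers had 8 members above 0, a median of 0.37 and a summed level of 22333 to 44114 in Tsc1-null EV lungs and 24922 to 32576 in WT EV lungs. Their mean level was -0.13, 0.71 and 0.37 in Tsc1-null EV replicates 1, 2 and 3, against 0.24, -0.14 and -0.10 in WT EV replicates 1, 2 and 3, so Tsc1-null EV replicates 2 and 3 were highest and replicate 1 lay within the WT EV range. Abca3, which pumps lipid into lamellar bodies, had values of 217, 336 and 293 in Tsc1-null EV lungs, against 196, 184 and 156 in WT EV lungs. The 5 markers of dividing cells were all above 0, with a median of 1.03, and together stood at 97.0 to 111 in Tsc1-null EV lungs and 18.5 to 99.4 in WT EV lungs, WT EV replicate 2 being the lowest library. The 6 club and ciliated cell markers had a median of 0.65 and the 6 endothelial markers one of -0.33, with the farthest value from 0 in Tsc1-null EV replicate 1 in both. The mean level of the club and ciliated markers was 1.23, 0.53 and 0.32 in Tsc1-null EV replicates 1, 2 and 3, against 0.12, -0.38 and 0.26 in WT EV replicates 1, 2 and 3, so the groups did not overlap in it. The 5 alveolar type 1 and 6 alveolar macrophage markers had medians of -0.18 and -0.09. Without the 2 libraries that stood apart the medians were 0.50 for alveolar type 2, 0.51 for dividing cells, 0.17 for club and ciliated cells and -0.20 for endothelium. They were -0.18 for alveolar type 1 cells, 0.41 for alveolar macrophages, which turned sign, and -1.02 for adipocytes. None of these markers was at 0 in all 6 lungs. The part of cell composition, and of rat reads, in the lipid synthesis values was not tested.

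**Figure D5:**
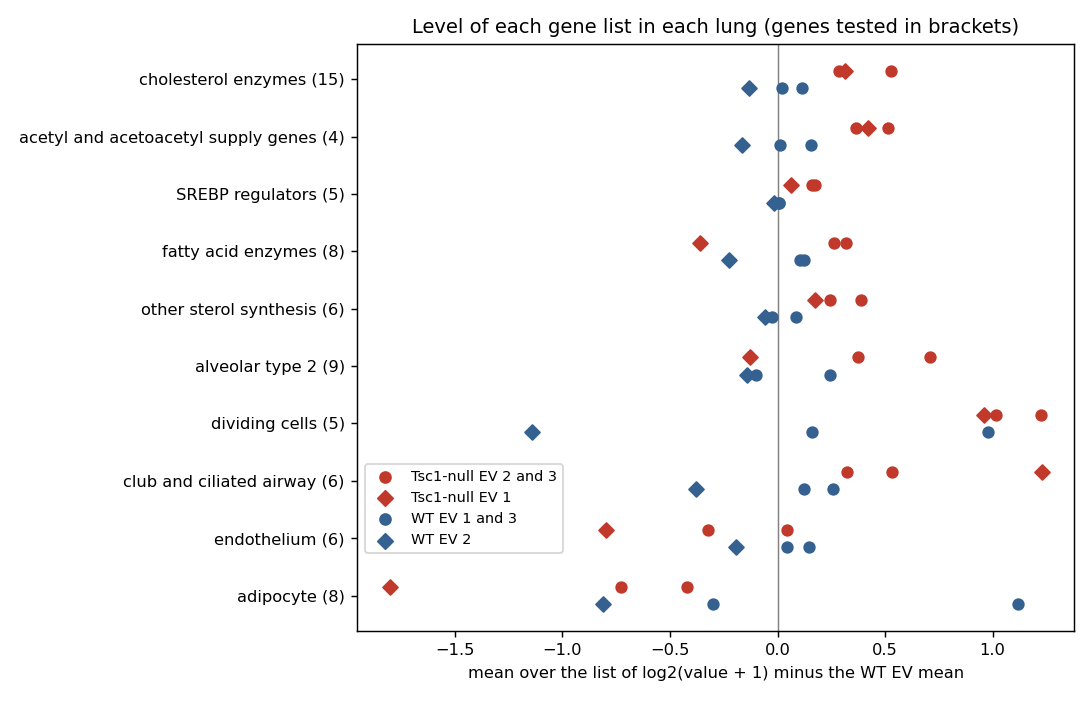
Mean over each gene list of log2(value + 1) minus the WT EV mean, in each lung, with Tsc1-null EV lungs (red) above WT EV lungs (blue) and diamonds for the 2 libraries that stood apart. The groups are separate for the cholesterol enzymes, the supply genes, the SREBP regulators, the further sterol genes and the club and ciliated airway markers, and overlap for the fatty acid enzymes, dividing cells, endothelium, adipocytes and alveolar type 2 cells.

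Some members share sequence with other genes, so their own values are less certain. Of 50-base words in their transcripts, Acat2 shared 39.1% with other genes, mainly the near copy Acat3, Acaca 30.4%, Fdps 26.2%, Me1 22.9% and Idi1 17.7%, the last 4 mainly with predicted genes. Scd1 and Scd2 shared 4.56% and 3.97%, mainly with each other. Cyp51 shared 0.135%, Aacs 0.0511% and Sqle 0%. In GENCODE M21 (mm10) Cyp51 covers 4081145 to 4104746 of chromosome 5 (minus strand), and Aacs covers 125475814 to 125517410 of the same chromosome (plus strand). Elovl6 lies on chromosome 3 from 129532355 to 129638495 and Srebf2 on chromosome 15 from 82147181 to 82205379, both on the plus strand, and all 4 are protein-coding. Exons of Fdft1, Scap and Hmgcs1 overlap those of a gene on the opposite strand by 774, 985 and 557 bases, and whether counting used strand is not stated in the labels. Those of Fdps, Tm7sf2 and Scd2 overlap a gene on the same strand by 1124, 532 and 61 bases.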

How the data were processed

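Lung RNA of 6 mice was read as paired ends, per the labels' protocols. The authors deposited a single table of TMM-normalized signal by gene and library, as its name states. The submitters' processing notes list Bowtie2 2.1.0, RSEM 1.2.15, edgeR and mm10 without saying what each did; the annotation, any filter and strand use are not stated. Within a library all values were whole multiples of 1 smallest step, from which read numbers were recovered (100% within 0.001 of a whole number).

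Mice were grouped by the treatment label. For the 14159 genes with a mean of at least 1, log2(value + 1) was tested with limma 3.58.1 (R 4.3.3), two-sided with an intensity trend, and p-values were adjusted by Benjamini-Hochberg over all of these genes at a threshold of 0.05. This scale understates the fold of low genes. Pairs of libraries within a group differed by a chi-square of 9.21 to 58.6 per degree of freedom, so none was a repeat of another. Other settings tried were a pseudocount of 0.5 or 0.1, filters at 5 or none, scaling to a common median, library weights (arrayWeights), edgeR 4.0.16 and DESeq2 1.42.0 on recovered reads, and fits without 1 replicate or without both libraries that stood apart. Fits were tested on simulated data.

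The members, lists, tests and alternatives were chosen with earlier results of these data known. Any member could be named; from each other list, up to 4 genes of smallest unadjusted p and the highest-expressed one could be. Ucp1 was named after its values were seen. Exon lengths and shared 50-base words come from GENCODE M21. Some genes of the other lists are not reported here.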

Additional observations from a re-analysis of the deposited data

How the results depend on the processing

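Of 479 values of single members under the alternatives, 452 kept their direction and stayed uncalled, 10 kept it and were called with sample weights, and 17 turned sign, in 7 members. Values to which DESeq2 gave no adjusted p were counted as uncalled. The median log2 fold of all 32 members stayed above 0 under all 15 settings, from 0.19 to 0.35. Limma called 0 genes, against 1050 with sample weights, 14 by DESeq2, 23 without both libraries that stood apart and 0 to 2 with each replicate left out, and edgeR called 0 (959 unadjusted, against 930 by limma and 949 by DESeq2). With sample weights 10 members were called and the median of the SREBP regulators was 0.23. The count of members higher in every Tsc1-null EV lung was 21 without both libraries, where 20.9% of all genes lay higher. It was also 21 without Tsc1-null EV replicate 1, where 14.9% did. With any other single replicate left out it was 9 to 14, and the share of all genes was not taken there. On recovered reads it was 8, against 9 as reported. The count of members lower in every Tsc1-null EV lung was 1 to 2. With 1 replicate left out the median of the fatty acid enzymes was -0.0772 to 0.30, below 0 without WT EV replicate 2. The values that turned sign were those of Acaca, at 0.0270 by edgeR, 0.0310 by DESeq2, 0.0429 with sample weights and 0.12 without both libraries, and, without both libraries, Hmgcs1 at -0.0447, Insig1 at -0.0009 and Elovl5 at -0.0009. With 1 replicate left out the log2 fold of Acaca was -0.14 to 0.22, of Mvd -0.0208 to 0.18, of Fasn -0.10 to 0.30, of Scd2 -0.0774 to 0.43 and of Elovl5 -0.0834 to 0.22. The cause of these changes was not tested. With a common median the median log2 fold of all genes was -0.0128, against -0.0154 as reported. No paired analysis was possible because the labels give each mouse a number that no other mouse shares. Depth limits Tm7sf2 and Elovl6 most, at 18 to 44 and 24 to 108 reads.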
